A study of Canis lupus familiaris with 33 samples.

Results

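LY6E expression varied widely between naturally occurring canine invasive urothelial carcinomas (iUC), and the 10 tumors with the highest LY6E were compared with the 10 tumors with the lowest LY6E across all other genes in the table. The 29 tumors were ranked by their LY6E value in the TMM-normalized table, so the 20 tumors compared were 20 of 29 tumors and of 33 samples in the series, and 9 tumors lay between the groups. The groups were therefore chosen from the data and are not groups that the study set up.

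Each tumor was a high-grade iUC biopsied through a cystoscope from a different dog with no earlier treatment of the cancer, and both LY6E groups are of this one kind. The 4 normal samples were bladder mucosa, dissected from dogs whose euthanasia had nothing to do with the bladder. RNA depleted of ribosomal RNA was sequenced as paired ends in a single batch. Each value is a log2 normalized level minus the median of that gene over the 33 samples, so 0 is the median sample, 1 is a doubling, and levels cannot be compared between genes. The study describes the included tumors as made up almost wholly of epithelial cells. A biopsy can still hold several cell types, and fewer cells of a type cannot be told apart from less RNA per cell.

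LY6E encodes a small protein of the LY6/uPAR family, held on the outer face of the cell membrane by a glycosylphosphatidylinositol (GPI) anchor. It belongs to the interferon-stimulated genes, which cells switch on when type I or type II interferon binds its receptor and the JAK and STAT proteins carry the signal to the nucleus. LY6E is also known as a gene of luminal urothelial cancers in people, and its family holds prostate stem cell antigen (PSCA) and the urokinase receptor (PLAUR).

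LY6E itself ran from -3.18 to 3.56 over the tumors, with a mean of 0.42 ± 2.04 (SD, n = 29). It was 2.59 ± 0.70 (SD, n = 10) in the LY6E-high tumors, with a lowest value of 1.79, a median of 2.59 and a highest value of 3.56. In the LY6E-low tumors it was -1.87 ± 0.97 (SD, n = 10), with a lowest value of -3.18, a median of -2.005 and a highest value of -0.42. These values chose the groups and are given without a test. The tumor ranked 10 had 1.79 and the one ranked 11 had 1.21, so the upper cut fell in a gap. The tumors ranked 19 and 20 had -0.40 and -0.42, so the lower cut fell between neighbours that barely differed. Ranking by the DESeq-normalized table gave the same 10 high and the same 10 low tumors.

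The normal samples lay at the bottom of the LY6E scale. Their values were -3.20, -3.02, -2.79 and -2.81, and 27 of 29 tumors lay above all 4 of them, the exceptions being the tumors ranked 28 and 29. In a limma fit adjusted over all genes by Benjamini-Hochberg, LY6E was higher in tumors by a log2 difference of 3.38 (standard error 0.99, adjusted p = 0.00316), and 10.7% of all genes were called higher in tumors. The normals also carried muscle transcripts, with a mean of the smooth muscle genes of 4.43 to 6.23 against at most 3.04 in any tumor, and the part of this in the difference was not tested.

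**Figure D1:**
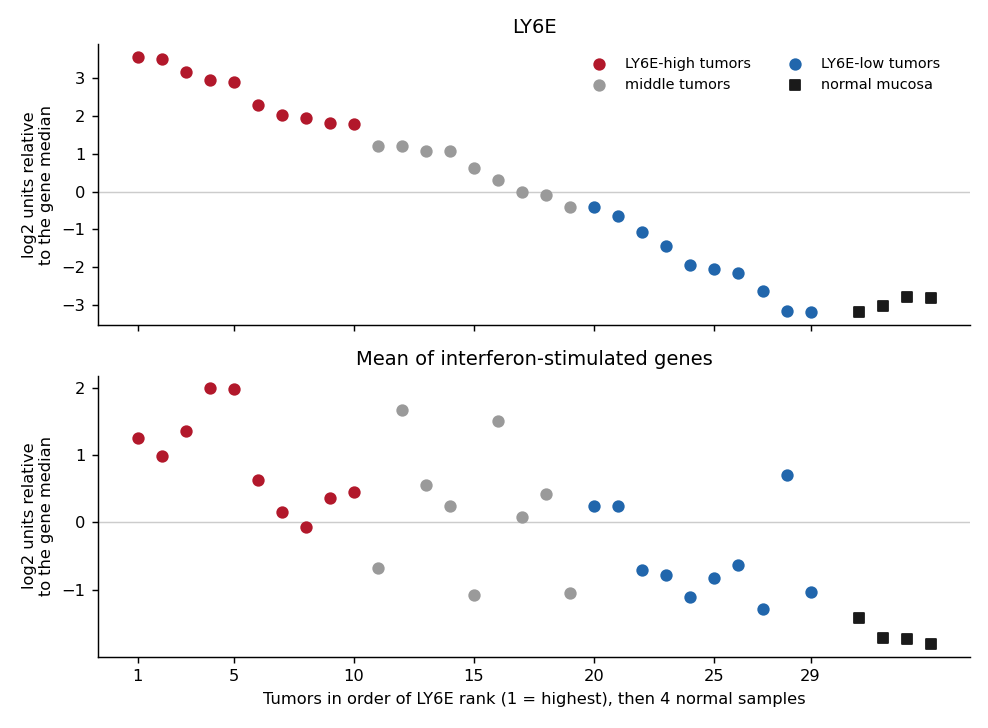
LY6E (top) and the mean of 34 interferon-stimulated genes (bottom) in each tumor, as the log2 level minus the median of the gene, with the tumors in order of LY6E rank and the 4 normal samples at the right; each point is 1 sample. In the lower panel 9 of 10 LY6E-high tumors and 3 of 10 LY6E-low tumors lie above 0, and the 4 normals lie below every tumor.

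A value shared by the lowest samples of a gene was read as no detected expression, and the count of such genes describes a library. Among the LY6E-high tumors, 3 libraries stood apart from the rest. The tumors ranked 1, 4 and 8 had 4638, 3699 and 4189 genes at the lowest value, against 5945 to 8175 in the other 26 tumors. They had 76.0%, 91.3% and 86.9% of the olfactory receptor genes above that value, against 4.37% to 49.7% elsewhere. Olfactory receptors are not expected to be active in bladder. The mean share was 41.5% ± 32.3 (SD, n = 10) in LY6E-high and 19.7% ± 12.6 (SD, n = 10) in LY6E-low tumors, which did not pass a two-sided permutation test (p = 0.0662, adjusted p = 0.105 over 3 library measures). Results are therefore also given without these 3 tumors, leaving 7 against 10, a comparison chosen after the data were seen. The tumors ranked 11 and 26 deviated together more than any other pair (r = 0.578 across genes, next pair 0.363), and only the second of them is in a group. Their LY6E values were 1.21 and -2.16. Their labels begin with the same number, though the study gives each tumor as coming from a different dog. So do the labels of the tumors ranked 10 and 23, which were not among the 3 closest pairs.

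Across 21485 genes, limma called 1 gene higher in the LY6E-high tumors and 0 genes lower, where a call needed 2-fold or more and an adjusted p (Benjamini-Hochberg) no higher than 0.05 (0.00465% and 0.00% of genes). At an unadjusted p under 0.05, 1318 genes were higher (6.13%) and 705 were lower (3.28%). Without the 3 tumors these were 785 higher (3.90%) and 600 lower (2.98%) of 20116 genes. No gene had every LY6E-high tumor above every LY6E-low tumor (0.00%), and 1 gene without a symbol had every LY6E-high tumor below every LY6E-low tumor (0.00465%).

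The 1 gene called carries no symbol in the table and is listed as ENSCAFG00000011681. It ran from 0.15 to 1.65 with a median of 0.97 in the LY6E-high tumors and from -1.45 to 0.45 with a median of -0.83 in the LY6E-low tumors. The groups overlapped by a single LY6E-high tumor, 9 of 10 lying above every LY6E-low tumor. Its log2 difference was 1.70 (standard error 0.26, adjusted p = 0.0317 by limma) and 1.69 without the 3 tumors, where it no longer passed (adjusted p = 0.204). Its Spearman's rho with LY6E over the 29 tumors was 0.79, the highest of all genes. Most of those tumors made up the groups, so this restates the difference. Over the 9 middle tumors its rho was 0.12.

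Interferon-stimulated genes were where the LY6E groups differed most. Of 34 listed genes in the table, 33 were higher on average in the LY6E-high tumors and 29 of them at an unadjusted p under 0.05, against 6.13% of all genes. None was lower at that threshold. Their median log2 difference was 1.39, against 0.05 over all genes tested, and 21 of the 34 were at least 2-fold higher, as were 4.00% of all genes. None passed the adjustment over all genes, the lowest adjusted p being 0.0574. Without the 3 tumors 26 of 34 were higher at an unadjusted p under 0.05, with a median of 1.22, and 21 again differed by at least 2-fold. Since LY6E is itself a gene of this class and the list was drawn up with earlier results known, these counts describe the tumors and are not an independent test.

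IFIT1, which binds viral RNA and stops its translation, had the lowest p of any gene with a symbol. It ran from 0.26 to 3.34 with a median of 1.26 in the LY6E-high tumors and from -6.05 to 0.89 with a median of -1.98 in the LY6E-low tumors. All 10 LY6E-high tumors lay above the LY6E-low median and 7 lay above every LY6E-low tumor. The log2 difference was 3.71 (standard error 0.62, adjusted p = 0.0574 by limma), and 3.47 without the 3 tumors. One LY6E-low tumor, ranked 20, held both the lowest IFIT1 (-6.05) and the lowest IFIT3 (-5.28), while its IFIT2 was the highest of the group at 2.01; without that tumor the difference in mean IFIT1 was 3.27. These are members of a multigene family whose copies can share reads, and how such reads were assigned is not given in the sources used here.

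RSAD2, or viperin, which blocks viral replication by making a chain-terminating nucleotide, ran from -0.68 to 3.42 (median 1.56) in LY6E-high and from -4.42 to 1.34 (median -1.83) in LY6E-low tumors, a log2 difference of 3.12 (standard error 0.67, adjusted p = 0.155 by limma). In ISG20, an exonuclease that degrades RNA, the ranges were -0.11 to 2.86 (median 2.45) and -2.17 to 1.00 (median -0.65), and 6 of 10 LY6E-high tumors lay above every LY6E-low tumor. For ZBP1, a sensor of Z-form nucleic acid, they were -1.33 to 2.94 (median 1.16) and -3.26 to 0.91 (median -1.81). XAF1, a binding partner of the apoptosis inhibitor XIAP, ran from -0.64 to 3.80 (median 1.76) against -2.66 to 1.43 (median -1.05). In each of these genes all 10 LY6E-high tumors lay above the LY6E-low median while the extremes of the groups overlapped. The log2 differences were 2.33 for ISG20, 2.72 for ZBP1 and 2.63 for XAF1, with adjusted p of 0.102, 0.155 and 0.155 by limma.

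The oligoadenylate synthetases, which make the second messenger that activates RNase L, gave log2 differences of 1.73 for OAS1, 2.25 for OAS2 and 1.53 for OAS3. The RNA helicases DDX58 (RIG-I) and DHX58 (LGP2), which detect or tune the detection of viral RNA, gave 1.40 and 1.50. ISG15, a ubiquitin-like modifier, gave 2.34, and BST2, which tethers budding virions to the cell, gave 2.16. STAT2 and IRF9, parts of the transcription factor complex that switches on this program, gave 0.56 and 0.65. All of these had an unadjusted p under 0.05. The 5 members that missed it were TRIM25, LGALS3BP, TRIM21, SIGLEC1 and SP110, with log2 differences from -0.03 for SP110 to 0.48 for LGALS3BP. MX1, MX2 and IFIH1 were not analysed here.

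**Figure D2:**
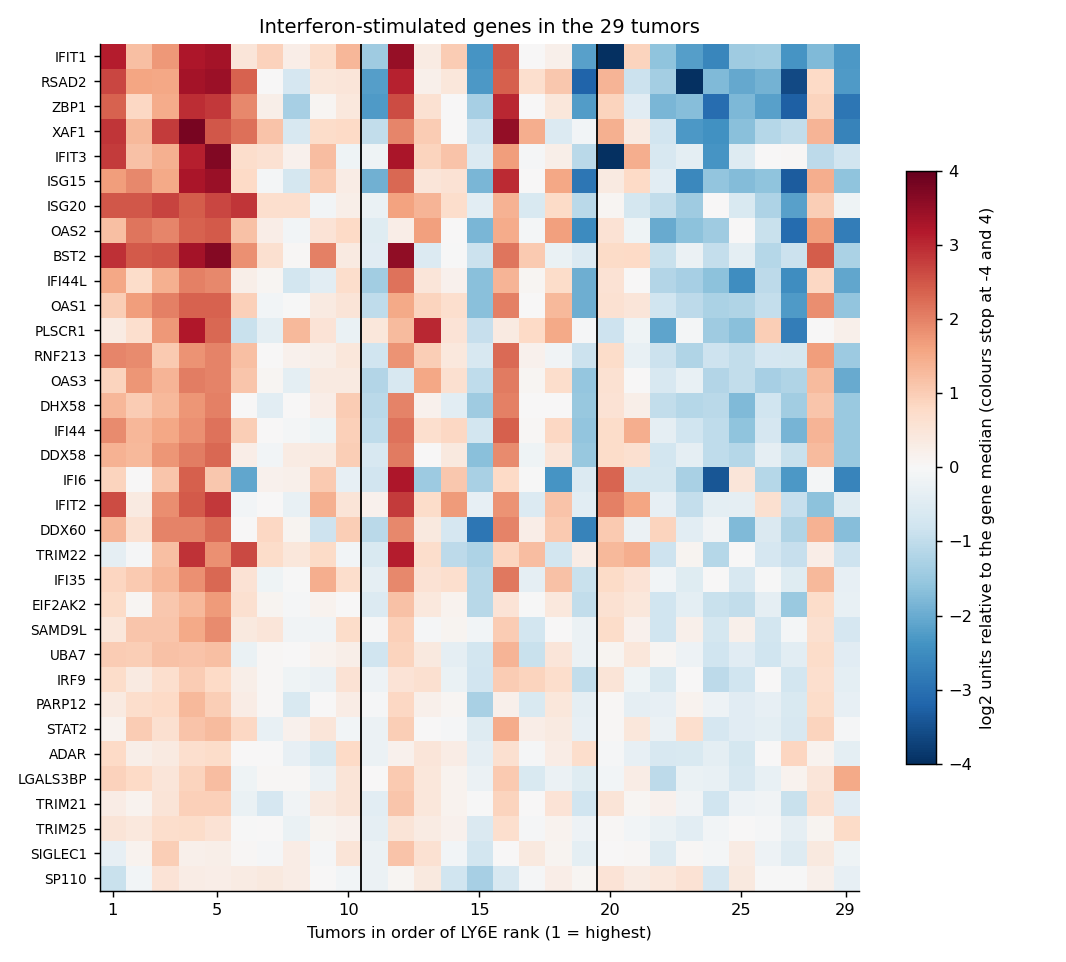
Levels of the 34 interferon-stimulated genes in the 29 tumors, as log2 values centred on the median of each gene, with the colours limited to the range from -4 to 4; tumors run from LY6E rank 1 at the left to 29 at the right, lines mark the group borders, and genes are sorted by log2 difference from IFIT1 (3.71) to SP110 (-0.03). Tumors ranked 1 to 5 are high across most genes, as are the tumors ranked 12 and 16 between the groups and the tumor ranked 28 in part.

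Tumor by tumor, LY6E and the other interferon-stimulated genes ran together only in part. The mean of the 34 genes ran from -0.06 to 1.99 (median 0.80) in LY6E-high tumors and from -1.29 to 0.70 (median -0.74) in LY6E-low tumors. Of the LY6E-high tumors, 5 lay above every LY6E-low tumor, and 7 LY6E-low tumors lay below every LY6E-high tumor. The 10 tumors with the highest mean held 6 LY6E-high, 3 middle and 1 LY6E-low tumor. The tumor ranked 28 for LY6E (-3.15) had the eighth highest mean of these genes (0.70), and the tumors ranked 12 and 16 had 1.67 and 1.51. The tumors ranked 7 and 8 had high LY6E with means of 0.15 and -0.06. In the normals the mean was -1.80 to -1.41, below every tumor, and for 31 of the 34 genes the normal mean was below that of the LY6E-low tumors.

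The 9 tumors between the groups entered the ranking by LY6E but not the comparison. In these tumors 28 of the 34 interferon-stimulated genes, and 22 of the 26 genes of antigen presentation, had a rank correlation with LY6E of the same sign as their difference between the groups, against 43.8% of all genes. Other lists had lower counts, these being 0 of 14 smooth muscle, 7 of 26 fibroblast, 7 of 21 endothelial, 7 of 25 macrophage, 7 of 21 LY6/uPAR and 6 of 22 GPI anchor genes and 13 of 48 neighbours of LY6E, and from 36.4% to 66.7% in each of the remaining lists. The rank correlation of LY6E with the mean of the interferon-stimulated genes was 0.27 over these 9 tumors and 0.65 over all 29. The genes of each list move together, so these counts are not counts of independent items.

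**Figure D3:**
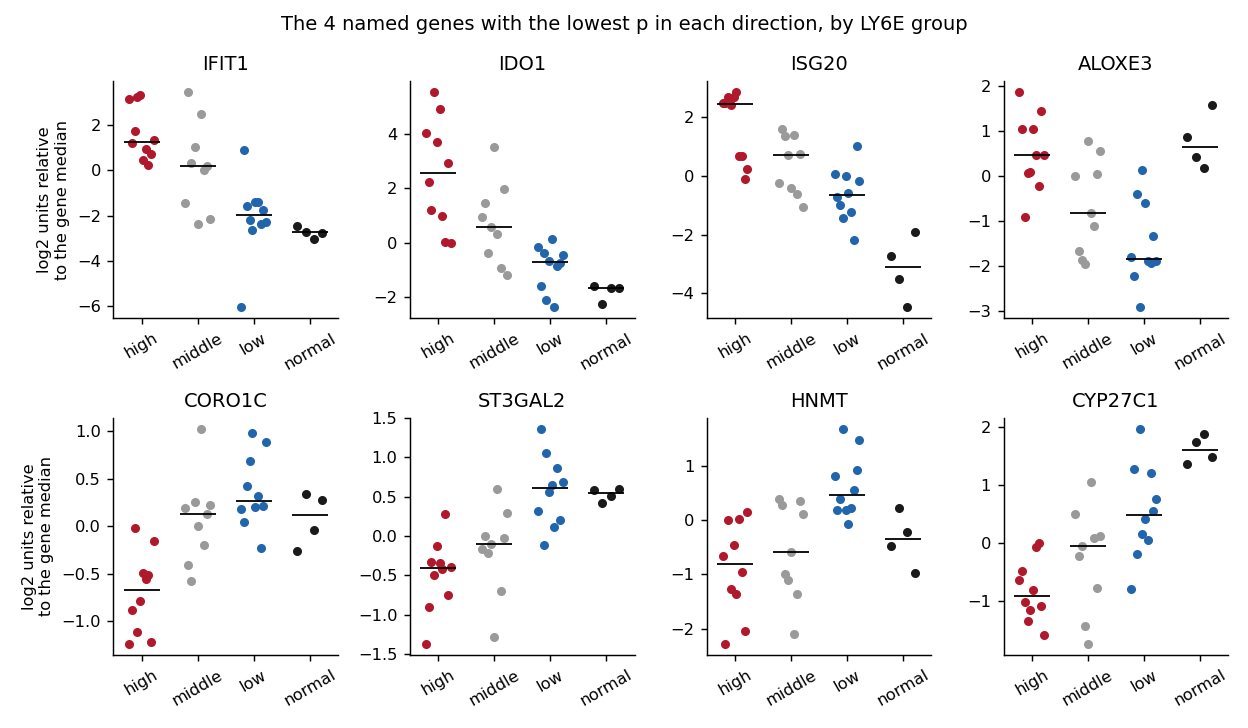
Levels of 8 genes in LY6E-high, middle and LY6E-low tumors and in normals, on the log2 scale centred on each gene's median; points are single samples, bars are group medians, and the genes are the 4 with a symbol and the lowest p in each direction. IFIT1, IDO1, ISG20 and ALOXE3 are higher and CORO1C, ST3GAL2, HNMT and CYP27C1 lower in LY6E-high tumors, with the extremes of the groups overlapping in each.

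Genes of antigen presentation and targets of interferon-gamma showed the next largest median difference of the lists. All 26 genes tested were higher on average in LY6E-high tumors and 15 of them at an unadjusted p under 0.05, with a median log2 difference of 0.72, against 56.3% and 6.13% of all genes. Without the 3 tumors 14 of 26 were, against 3.90% of all genes, with a median of 0.77. IDO1, which breaks down tryptophan and restrains T cells, led the list. It ran from 0 to 5.55 (median 2.57) in LY6E-high and from -2.39 to 0.15 (median -0.72) in LY6E-low tumors, and 8 of 10 LY6E-high tumors lay above every LY6E-low tumor. Its log2 difference was 3.48 (standard error 0.65, adjusted p = 0.0938 by limma) and 3.20 without the 3 tumors.

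Within this list the genes of the MHC class I route stood out, a division made after the values were seen. Of 13 such genes 12 were higher at an unadjusted p under 0.05, against 6.13% of all genes, with a median log2 difference of 0.90. They were the peptide transporters TAP1 (0.93) and TAP2 (0.72), the immunoproteasome subunits PSMB8 (0.82), PSMB9 (0.90) and PSMB10 (1.03) and their activators PSME1 (0.46) and PSME2 (0.79), the trimming peptidases ERAP1 (0.43) and ERAP2 (1.24), the class I activator NLRC5 (1.31), and the class I genes DLA88 (1.22) and DLA-64 (1.02). TAPBP gave 0.36. The class I genes are near copies of one another, so reads may be split between them. Of 5 genes of the class II route, CIITA, CD74, DLA-DMA, DLA-DMB and DLA-DQA1, 0 passed that threshold by limma, at either the unadjusted or the adjusted level, and their log2 differences ran from 0.07 to 0.36. Whether the routes differ from each other was not tested. IRF1, a transcription factor induced by interferon-gamma, gave 1.08 and was above every LY6E-low tumor in 7 of 10 LY6E-high tumors, while the checkpoint ligand CD274 (PD-L1) gave 0.47 with an unadjusted p of 0.117 in the limma fit.

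Of the genes that start the response, 3 of 15 receptors, kinases and sensors were higher at an unadjusted p under 0.05 and none was lower, against 6.13% and 3.28% of all genes, with a median log2 difference of 0.07. They were MB21D1 (cGAS), the sensor of cytosolic DNA, at 1.79, the Toll-like receptor adaptor MYD88 at 0.83 and the transcription factor IRF3 at 0.43. MB21D1 ran from -1.73 to 2.41 (median 0.32) in LY6E-high and from -3.21 to 1.08 (median -1.33) in LY6E-low tumors. Its adaptor TMEM173 (STING) gave 0.07, and JAK1, JAK2 and TYK2 gave -0.16, -0.04 and -0.16. The interferon genes themselves were looked up after these results were seen. IFNB1 was above its lowest value in 7 of 10 LY6E-high and 2 of 10 LY6E-low tumors, and since it passed the filter on low values only through the LY6E-high tumors, no test of it is given. IFNG was at its lowest value in 14 of 29 tumors and gave a log2 difference of 0.59 (adjusted p = 0.824 by limma), and -0.24 without the 3 tumors. IFNE and IFNK, interferons of epithelia, were above their lowest value in every tumor and gave -0.50 and -0.28 (adjusted p = 0.860 and 0.875 by limma). IFNB1 and IFNG were higher in the normals than in the LY6E groups, at 3.83 to 5.52 for IFNB1 and 4.64 to 5.69 for IFNG, samples in which 99.7% to 100% of the olfactory receptor genes also lay above their lowest value.

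Few markers of immune cells had a low p between the LY6E groups, although most T-cell and B-cell genes had a positive difference. Of 26 T-cell and cytotoxic genes 1 was higher at an unadjusted p under 0.05, a share below the 6.13% of all genes, with a median log2 difference of 0.32. This gene was PDCD1 (PD-1), the inhibitory receptor of activated T cells, which ran from -1.40 to 2.41 (median 1.74) in LY6E-high and from -3.70 to 0.92 (median -0.12) in LY6E-low tumors, a log2 difference of 1.77 (adjusted p = 0.367 by limma). CD8A and GZMB gave 1.30 and 1.11. The mean of the T-cell list ran from -1.11 to 2.54 in LY6E-high and from -1.72 to 1.52 in LY6E-low tumors, and the 10 tumors highest in it held 3 LY6E-high, 3 middle and 4 LY6E-low tumors. Positive differences were seen in 22 of the 26 T-cell genes, against 56.3% of all genes, and the median was 0.65 with 7 tumors a side and 0.12 with the number of genes at the lowest value as a covariate. Of 19 B-cell genes 16 had a positive difference. Of 19 B-cell and 25 macrophage genes, 0 passed at an unadjusted p under 0.05 in the limma fit, with medians of 0.27 and 0.01. The B-cell median was 0.07 without the 3 tumors and 0.05 with the number of genes at the lowest value as a covariate. The part of T cells in the interferon result was not tested.

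Genes of the tumor stroma leaned the other way. Of 26 fibroblast and matrix genes 3 were lower at an unadjusted p under 0.05, against 3.28% of all genes, with a median log2 difference of -0.39. COL1A1 and COL1A2, which encode the chains of type I collagen, gave -1.36 and -0.95, and the matrix protein TNC gave -1.14. TNC itself ran from -1.80 to 2.39 (median -1.29) in LY6E-high and from -0.72 to 1.85 (median 0.06) in LY6E-low tumors, with 8 of 10 LY6E-high tumors below every LY6E-low tumor and 1, the highest, above them all. With 14 tumors a side 0 of the 26 were lower at an unadjusted p under 0.05 in the limma fit, and the median was -0.10. Of 14 smooth muscle genes 13 had a negative log2 difference (median -0.51), and 1, SMTN at -1.02, was lower at that threshold, while the median was -0.0095 with 14 tumors a side. Of 21 endothelial genes 1, the TGF-beta co-receptor ENG at -1.14, was lower, with a median of -0.33, and 0 were with 14 tumors a side, with a median of -0.16. Of 19 WNT and TGF-beta response genes, RNF43 (-1.24) and PMEPA1 (-1.02) were lower and the receptor TGFBR2 (0.77) higher, against 3.28% and 6.13% of all genes. Of the 19, 17 had a negative difference, with a median of -0.51. With 7 tumors a side 7 were lower, against 714 of 20397 genes. With LY6E as a continuous covariate 5 were, against 751 of 22029 genes. With 14 a side 1 was, against 579 of 21946 genes, and the list median was -0.25. Without the 3 tumors, the counts of lower genes were 4 fibroblast, 1 muscle and 1 endothelial, against 2.98% of all genes. The differences in stroma and in interferon-stimulated genes were measured in the same tumors, and the part of one in the other was not tested.

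Luminal urothelial genes showed no common direction, while most basal and secretory genes had a positive difference. Of 36 luminal genes tested 2 were higher and 1 lower at an unadjusted p under 0.05, shares near the 6.13% and 3.28% of all genes, with a median log2 difference of -0.06. Of the 36, 34 were above their lowest value in every tumor. So were 21 of 21 endothelial and 24 of 25 macrophage genes, so this is no check of the tissue label. ELF3, an epithelial transcription factor, gave 0.61 and the sodium channel subunit SCNN1B 1.06, whereas PPARG, a regulator of luminal differentiation, gave -0.84 (standard errors 0.19, 0.40 and 0.29). KRT20, a keratin of umbrella cells, gave 1.36 with 1 LY6E-high tumor at 8.32, and -0.09 without the 3 tumors. Among 30 basal and squamous genes 2 were higher, RHCG (2.68) and TGM3 (2.28), a share near that of all genes, and 0 were without the 3 tumors, where their values were 1.79 and 1.35. Among 22 secretory and surface genes 3 were higher, LCN2 (2.08), CAPN8 (1.11) and CAPN9 (1.08), against 6.13% of all genes. CAPN9 had passed the filter only through the LY6E-high tumors. Of 21 genes above the lowest value in at least 10 tumors, 2 were higher, against 936 of 18307 genes. Without the 3 tumors only CAPN8 was, against 3.90% of all genes. Positive differences were seen in 22 of 30 basal and 19 of 22 secretory genes, against 56.3% of all genes. The medians of these lists were 0.40 and 0.66, and 0.13 and 0.31 without the 3 tumors.

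**Figure D4:**
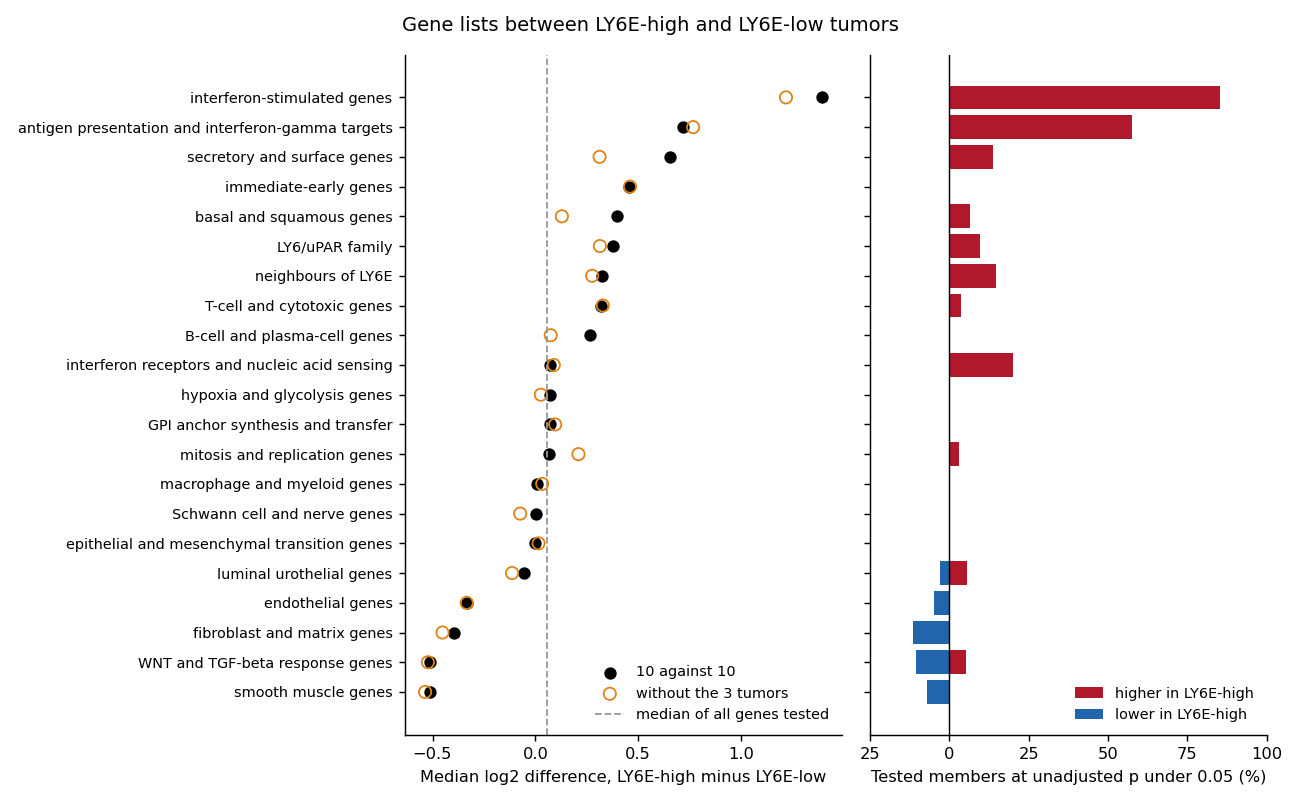
Left, the median log2 difference (LY6E-high minus LY6E-low) of each gene list with all 20 tumors (filled) and without the 3 LY6E-high tumors that stood apart (open), with the median of all genes tested, 0.05, as a dashed line. Right, the percent of tested members at an unadjusted p under 0.05, higher to the right and lower to the left; interferon-stimulated genes (29 of 34) and antigen presentation (15 of 26) stand far to the right of the other lists.

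Most relatives of LY6E had a positive difference, but few had a low p. Of 21 LY6/uPAR genes tested 17 had a positive log2 difference (median 0.38), as had 56.3% of all genes. At an unadjusted p under 0.05 by limma 2 were higher, against 6.13% of all genes. They were LY6G6F (1.18) and PLAUR (0.88), the urokinase receptor. Without the 3 tumors 0 were higher, and with either library measure as a covariate 0 were higher and 1 lower. PSCA, an antigen of prostate and bladder cancers, ran from -1.87 to 1.48 (median 0.60) in LY6E-high and from -3.40 to 0.97 (median -0.11) in LY6E-low tumors, a log2 difference of 0.96 (standard error 0.57, adjusted p = 0.613 by limma). LYPD2 and SLURP1 gave 1.14 and 1.04. CD59, the GPI-anchored inhibitor of complement, gave -0.18. In the normals the mean of the family was 0.73 to 1.35, above every tumor but 1. Its members differed there, with normal means of -5.53 for LYPD2, -3.44 for PSCA and -2.73 for SLURP1. LY6G6F had a normal mean of 3.28 and was at its lowest value in 12 of 29 tumors. LY6E was low in the normals. None of 22 genes for making and attaching the GPI anchor passed at an unadjusted p under 0.05 in the limma fit (median 0.07), the transamidase subunits PIGT and GPAA1 giving 0.48 and 0.44.

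LY6E lies on dog chromosome 13 in the RefSeq gene order, and most genes around it had a small difference in the same direction. Of the 25 genes on each side in the table, 48 were tested, and 40 had a positive log2 difference (median 0.32), as had 56.3% of all genes. At an unadjusted p under 0.05, 7 were higher, against 6.13% of all genes. The 48 include KCNK9 and CYP11B2, which passed the filter only through the LY6E-high tumors. Of the 44 above the lowest value in at least 10 tumors, 7 were higher and 1 lower, against 936 and 703 of 18307 genes. Without the 3 tumors 3 of 46 were higher and 1 lower, and 2 of 48 were higher with either library measure as a covariate, whereas 13 were with LY6E as a continuous covariate and 10 in the DESeq-normalized table. Of the 7 neighbours higher in the main fit, GSDMD, the pore-forming effector of pyroptosis, had the largest difference among those detected in every tumor. It gave 1.08 (standard error 0.30, adjusted p = 0.274 by limma). GSDMD ran from -0.73 to 1.72 (median 0.79) in LY6E-high and from -1.30 to 0.53 (median -0.36) in LY6E-low tumors. EEF1D, a translation elongation factor subunit, gave 0.63. FAM135B, KCNK9, DENND3, MAPK15 and OPLAH were the others, of which KCNK9 was at its lowest value in all 10 LY6E-low tumors and so passed the filter only through the LY6E-high tumors. The nearest tested genes, CYP11B2 and LY6H, gave 0.35 and 0.33 and were at the lowest value in 25 and 23 of 29 tumors. For CYP11B2 this held in 7 of 10 LY6E-high and 9 of 10 LY6E-low tumors, so it too passed the filter only through the LY6E-high tumors. CYC1 was at the lowest value in 5 of 10 LY6E-high and 0 of 10 LY6E-low tumors, and its difference of -4.83 had a standard error of 5.11. The error depended on the fit. It was 1.58 in limma without the mean-variance trend (unadjusted p = 0.00597), and 1.86 without the 3 tumors, where the difference was -5.56 (unadjusted p = 0.00768 by limma) and CYC1 was the 1 neighbour lower.

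**Figure D5:**
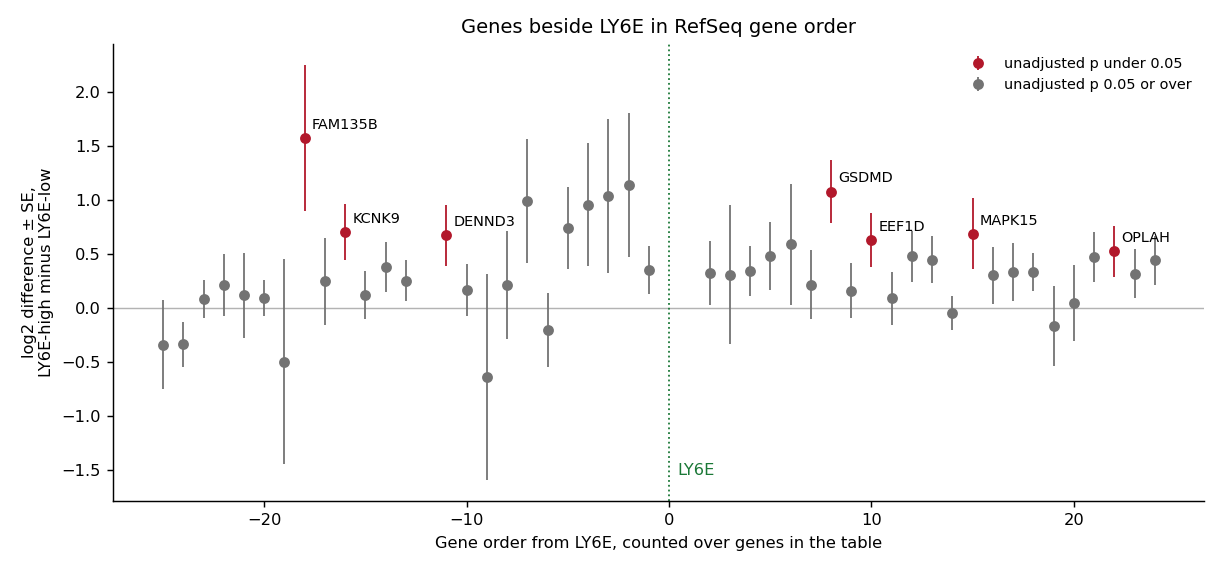
Log2 difference (LY6E-high minus LY6E-low, with the standard error) of the genes beside LY6E in RefSeq order; the x axis counts genes in the table on each side, with LY6E at 0, and CYC1 (-4.83, standard error 5.11) is not drawn. Most points lie above 0, and GSDMD is the highest on the right.

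Chromosome 13 as a whole had the largest median log2 difference of the 26 chromosomes in the table, 0.25 over 306 genes, and 40 of them (13.1%) were higher at an unadjusted p under 0.05 against 6.13% of all genes. Without the 3 tumors these values were 0.16 and 24 of 301 genes (7.97%), against 3.90%. The lowest median was that of chromosome 26, -0.16, where 34 of 274 genes (12.4%) were lower against 3.28% of all genes. It was -0.09 with 17 of 273 genes without the 3 tumors, against 2.98% of all genes. Gene copy number was not measured.

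The other genes named for a low p in the positive direction were ALOXE3, CFTR, IFGGC1 and LGALS9. ALOXE3, a lipoxygenase of the epidermal barrier, ran from -0.92 to 1.87 (median 0.46) in LY6E-high and from -2.92 to 0.14 (median -1.85) in LY6E-low tumors, a log2 difference of 2.02 (standard error 0.40, adjusted p = 0.102 by limma). CFTR, the chloride channel of epithelia, ran from 0.07 to 3.81 (median 1.90) against -4.20 to 0.72 (median -0.78), a log2 difference of 3.07 (adjusted p = 0.155). IFGGC1, an interferon-inducible GTPase, and LGALS9, which encodes galectin-9, gave 3.03 and 1.56. In each of ALOXE3, CFTR and LGALS9 all 10 LY6E-high tumors lay above the LY6E-low median.

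In the negative direction CORO1C, a coronin that binds actin filaments, had the lowest p of genes with a symbol. It ran from -1.24 to -0.02 (median -0.67) in LY6E-high and from -0.23 to 0.99 (median 0.27) in LY6E-low tumors, with 8 of 10 LY6E-high tumors below every LY6E-low tumor. Its log2 difference was -1.07 (standard error 0.20, adjusted p = 0.093 by limma). ST3GAL2, a sialyltransferase, gave -1.05, with 9 of 10 LY6E-high tumors below every LY6E-low tumor, and HNMT, which inactivates histamine, gave -1.52. RDH12, a retinol dehydrogenase, ran from -4.89 to 1.40 (median -0.64) against 0.16 to 2.74 (median 1.63), a log2 difference of -2.54. CYP27C1, which desaturates retinoids, gave -1.36 and HSD17B6, a steroid and retinol dehydrogenase, -1.81. SUMF1, which activates sulfatases, gave -0.85. TTC21A and TTC8, genes of cilia, gave -0.78 and -0.96, and CADPS2, a regulator of vesicle release, -0.78. The adjusted p of these genes ran from 0.093 to 0.181 by limma, and none passed.

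Over all 29 tumors the genes with a symbol whose order was most like that of LY6E were IDO1, OR2D3, IFIT1, ISG20 and NLRP10, with a Spearman's rho of 0.78, 0.75, 0.74, 0.72 and 0.68. OR2D3, itself an olfactory receptor gene, and NLRP10 were at the lowest value in 18 and 21 tumors. In the LY6E-low group this held for 9 and 10 of 10 tumors, so both passed the filter only through the LY6E-high tumors, and the log2 difference of NLRP10 was 1.61, or 0.65 without the 3 tumors. The most opposed were CORO1C, ST3GAL2, RDH12, IFT88 and NYNRIN, with a rho from -0.75 to -0.68. The median rho was 0.55 over the interferon-stimulated genes, where it ran from 0.01 to 0.74, against 0.03 over all genes. The 29 points share one batch and normalization, and these values are descriptions.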

How the data were processed

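RNA-seq of 29 canine iUC and 4 normal bladder mucosa samples was analysed. Per the study, reads were aligned to CanFam 3.1 with COBWeb in Strand NGS 3.1. The authors deposited log2 values, normalized by TMM or by DESeq and centred on each gene's median. The study aimed at an average of 50000000 reads per sample. Totals of single samples, and so the depth behind a value, are not known. The TMM values deposited by the authors covered 25096 genes and the DESeq values 25139 genes, each after 1 incomplete line was left out. Of the TMM genes, 12202 had a symbol and 796 more were named by Entrez ID from RefSeq (UU_Cfam_GSD_1.0), used for names, chromosomes and gene order only. Genes of other chromosomes than those in the tables were not analysed here, and no sequence is shown. Whether counting used strand is not given in the sources used here, so a gene and one overlapping or antisense to it cannot be told apart.

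LY6E groups were compared by limma (version 3.58.1, under R 4.3.3; eBayes with a mean-variance trend, Benjamini-Hochberg adjustment), LY6E left out, for genes above their shared lowest value in at least 4 of 20 tumors; values equal within 1e-06 were taken as shared. Fits were tested on simulated data. Library measures were compared by permutation (100000 resamples) in Python 3.11.15 with scipy 1.17.1, numpy 2.4.6 and pandas 2.3.3. Per the study each tumor came from a different dog, so p-values measure the spread between dogs. Named genes were, because fewer than 10 passed, the 10 with a symbol and the lowest p in each direction, the 3 largest differences of each list, the nearest neighbours of LY6E, and the 5 highest and lowest correlations; other list members in the text were picked after their values were seen. The tumors, lists and rules were chosen with earlier results of these data known. Alternatives covered the table, ranking, trend, group size, filter, centring and library covariates.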

Additional observations from a re-analysis of the deposited data

Results flagged for a closer look

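A single sample stood far from the rest of its group (Dixon's criterion) in 21 of 250 combinations of named gene and group tested (8.40%), where chance gives about 1 in 20. In the LY6E-low tumors the lowest sample stood apart for IFIT1 (-6.05, the next -2.62), PDCD1 (-3.70, the next -1.31), MYBL2 (-3.47, the next -1.22), CDK1 (-2.35, the next -0.85), ERO1A (-1.63, the next -0.29) and GPAA1 (-0.96, the next -0.32). The highest LY6E-low sample did so for LY6G6F (1.40), OR2D3 (1.13) and CYP11B2 (0.41), genes at their lowest value in most of that group. In the LY6E-high tumors the highest sample stood apart for KRT20 (8.32, the next 2.93), FOXA3 (8.32, the next 2.58), POU2AF1 (7.69, the next 2.29), SCNN1B (2.69, the next 1.02), TNC (2.39, the next -0.06), COL1A2 (2.15, the next 0) and LMOD1 (1.95, the next 0.39). Among the 4 normals the lowest stood apart for PDCD1 (-4.03), IDO1 (-2.27), ENSCAFG00000011681 (-1.71) and HSD17B6 (-0.42), and the highest for CASQ2 (4.93).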

How the results depend on the processing

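The number of genes called was small and changed with the fit. Against 1 gene higher, limma called 7 with the middle tumors as a group of their own, 5 with LY6E as a continuous covariate and 10 with 7 tumors a side. It called 0 with 14 tumors a side, with no filter, with the number of genes at the lowest value or the olfactory share as a covariate, and without the 3 tumors that stood apart. Against 0 genes lower, it called 1 with the middle group and 4 with 7 tumors a side. The cause was not tested. At an unadjusted p under 0.05, genes higher fell from 1318 to 692 and 726 with the 2 covariates and 785 without the 3 tumors. Of 18307 genes above the lowest value in at least 10 tumors, 936 were higher and 703 lower at that threshold. The adjusted p of IFIT1 by limma ran from 0.00484 with 7 a side to 0.412 with the first covariate. The difference of KRT20 turned to -0.18 and -0.064 with the covariates and -0.089 without the 3 tumors, that of MS4A1, 0.74 with all 20 tumors, to -0.0079 with the first covariate, and that of SYT1, 1.18, to -0.53 with 7 a side. Of the values of named genes under these settings, 1050 kept their direction and side of the threshold, 15 passed only there and 5 no longer passed. Only 1 gene had passed in the main fit, so keeping its side mostly meant that a gene again did not pass. Ranking by the DESeq-normalized table left the groups the same, so its values could not change. The 1050 are therefore no measure of how stable the results are. List medians moved by less than the spread between tumors, but by over 1.5 times in places, including smooth muscle (-0.51 to -0.0095) and fibroblast genes (-0.39 to -0.10) with 14 a side and basal (0.40 to 0.13) and secretory genes (0.66 to 0.32 and 0.30) with the covariates. Interferon-stimulated genes higher at an unadjusted p under 0.05 numbered 23 to 30 of 34 over these settings, with medians from 1.08 to 1.92. LY6E in tumors minus normals was 3.30 to 3.43 with each normal left out. No paired analysis was possible because tumors and normals came from different dogs and share no replicate numbers.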

Other observations

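A wider set of genes that the table annotates to antiviral defense, looked up after the results above, gave 20 of 58 tested genes higher and 1 lower at an unadjusted p under 0.05, with IFNB1 left out because it passed the filter on low values only through the LY6E-high tumors. Outside the interferon-stimulated list these were 8 and 1 of 46, against 6.13% and 3.28% of all genes, with a median log2 difference of 0.15. The 8 include IRF1, NLRC5 and IRF3, which are already described above, so this set is not separate from the earlier lists. Oasl1, an oligoadenylate synthetase-like gene, gave 2.67 (standard error 0.66, adjusted p = 0.213 by limma) and C19orf66 gave 0.75.

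Few genes of the lists not described above had a low p. Of 33 mitosis and replication genes 1 was higher at an unadjusted p under 0.05, below the 6.13% of all genes, TYMS at 0.45, and the median was 0.07. None of 16 hypoxia, 22 epithelial and mesenchymal transition, 14 Schwann cell or 21 immediate-early genes passed that threshold in the limma fit, with medians of 0.07, -0.00049, 0.0032 and 0.46. Of the immediate-early genes, which respond within minutes to stimulation, 18 of 21 had a positive difference, ATF3 giving 1.20.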
